A study of Mus musculus with 8 samples.

Results

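The genes described here are 10 genes of mast cells and basophils, chosen by name from the 22740 protein-coding genes of a count table of mouse skin. They are the granule proteases Mcpt4, Cma1, Tpsb2, Tpsab1 and Cpa3, the receptor genes Kit, Fcer1a and Ms4a2, the histamine-forming enzyme gene Hdc, and the basophil protease gene Mcpt8. All 10 were listed, and all 10 passed the filter on low counts that left 15163 genes for testing. Mcpt8 and Fcer1a reached the cutoff of the filter, 0.509 CPM, in no baseline mouse and passed it through the lesional mice alone. A difference was thus built into their selection, so their counts are described, and counts and medians over members are given for the other 8.

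RNA was sequenced from dorsal skin of 8 female BALB/c mice aged 6 to 8 weeks and kept on a low-fibre diet, in 4 groups of 2 mice, each mouse giving 1 library. Baseline CTL mice drank plain water and had no allergen. Baseline butyrate mice, also without allergen, drank water with 400 mM sodium butyrate, for which 2 weeks are recorded. Lesional CTL mice drank plain water and received 4 patches of 15 µg house dust mite (HDM) extract on shaved back skin over 2 weeks. Lesional butyrate mice received the same HDM exposure while drinking butyrate, begun 2 weeks earlier. By these records lesional butyrate mice drank butyrate for longer than baseline butyrate mice. Baseline and lesional mice carry different leading numbers in their labels and no group here had a patch without HDM, so that HDM, the patch and whatever else set the mice apart cannot be told apart. Levels are given as CPM, the counts of a gene relative to the scaled total of its library, and a gene was called at a false discovery rate (FDR) below 0.1 with a fold change above 2 by edgeR's quasi-likelihood test over all 15163 genes.

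Mast cells live in the dermis, where they depend on the receptor KIT and store histamine, heparin, chymases, tryptases and carboxypeptidase in granules. The high-affinity IgE receptor, with an alpha chain from Fcer1a and a beta chain from Ms4a2, is shared by mast cells and basophils and triggers granule release when an allergen crosslinks its bound IgE. Basophils circulate in blood, enter inflamed skin and carry the protease encoded by Mcpt8. Skin holds other cells with some of these transcripts: KIT is also the receptor of melanocytes, and Hdc is also found in neutrophils and other myeloid cells. In whole skin, more cells of a type and more RNA per cell cannot be told apart.

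The members lie in a few places of the genome (GRCm38, GENCODE vM21). The chymase genes Cma1 (chr14:55941451-55944675) and Mcpt4 (chr14:56059629-56062313) and the basophil gene Mcpt8 (chr14:56082166-56085273) sit in the same protease cluster, all on the minus strand. Tpsab1 (chr17:25343245-25345562) and Tpsb2 (chr17:25366305-25369098) are neighbours on chromosome 17, on opposite strands. The remaining genes are apart, with Cpa3 on chromosome 3, Kit on 5, Fcer1a on 1, Ms4a2 on 19 and Hdc on 2. Of all stretches of 50 bases in its exons, Mcpt4 shared 5.48% with another gene, Cma1 5.38%, Ms4a2 2.10% and Hdc 0.141%, while the other 6 members shared none, the neighbouring tryptases included.

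The 250 bases before the annotated start are shown for members with different patterns: the proteases Mcpt4, Cma1 and Cpa3, then Hdc and Fcer1a, and Mcpt8, which lies in the cluster of Mcpt4. Capitals mark a motif read by GATA factors such as GATA2, a regulator of mast cells and basophils, on either strand. The motif was searched as AGATAA and, with another last base, as AGATAG, and likewise beginning with another base as TGATAA and then as TGATAG. Sequences are from RefSeq (GRCm38.p6) and run 5′ to 3′ along the gene. Some RefSeq starts differ from the GENCODE vM21 loci. The Hdc window lies within its GENCODE locus (chr2:126593667-126619299), and the Mcpt8 window overlaps its GENCODE locus. The positions of matches, and their absence, hold for the RefSeq starts only.
Mcpt4 (chr14:56062311-56062560, minus strand): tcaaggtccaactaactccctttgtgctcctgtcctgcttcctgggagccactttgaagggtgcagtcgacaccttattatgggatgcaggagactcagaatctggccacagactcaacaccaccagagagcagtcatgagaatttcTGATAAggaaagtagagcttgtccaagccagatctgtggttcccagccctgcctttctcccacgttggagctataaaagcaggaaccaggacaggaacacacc
Cma1 (chr14:55944676-55944925, minus strand): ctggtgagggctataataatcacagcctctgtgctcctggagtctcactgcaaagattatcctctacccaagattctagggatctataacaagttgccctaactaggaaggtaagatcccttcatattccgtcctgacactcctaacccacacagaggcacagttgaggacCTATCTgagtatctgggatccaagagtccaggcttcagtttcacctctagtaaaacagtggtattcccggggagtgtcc
Cpa3 (chr3:20242182-20242431, minus strand): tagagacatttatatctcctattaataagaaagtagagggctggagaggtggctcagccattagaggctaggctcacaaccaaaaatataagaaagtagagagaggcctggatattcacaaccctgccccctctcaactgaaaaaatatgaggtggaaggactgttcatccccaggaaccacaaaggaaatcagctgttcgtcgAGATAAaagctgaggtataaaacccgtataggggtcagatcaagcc
Hdc (chr2:126618679-126618928, minus strand): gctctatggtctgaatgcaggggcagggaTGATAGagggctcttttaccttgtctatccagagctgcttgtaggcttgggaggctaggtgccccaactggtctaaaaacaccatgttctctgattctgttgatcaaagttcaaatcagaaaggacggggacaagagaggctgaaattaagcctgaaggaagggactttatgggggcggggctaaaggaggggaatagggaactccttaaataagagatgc
Fcer1a (chr1:173227230-173227479, minus strand): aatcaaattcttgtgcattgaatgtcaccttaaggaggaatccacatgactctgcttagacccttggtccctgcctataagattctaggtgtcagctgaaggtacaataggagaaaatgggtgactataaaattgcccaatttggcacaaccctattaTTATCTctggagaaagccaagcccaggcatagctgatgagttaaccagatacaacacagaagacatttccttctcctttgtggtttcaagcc
Mcpt8 (chr14:56085198-56085447, minus strand): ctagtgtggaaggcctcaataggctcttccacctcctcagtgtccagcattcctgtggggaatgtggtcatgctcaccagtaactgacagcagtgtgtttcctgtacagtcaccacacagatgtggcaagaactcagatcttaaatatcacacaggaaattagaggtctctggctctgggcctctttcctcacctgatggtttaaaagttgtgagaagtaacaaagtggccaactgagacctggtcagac
Of the 8 members in the table of promoters, 6 held such a match, against 26.5% of 32851 promoters. Members are counted as genes here and the whole table as promoters, of which a gene such as Kit can have several. Binding of GATA factors and their part in the levels were not tested. The match lay 103 bases before the start in Mcpt4, 79 in Cma1, 46 in Cpa3, 92 in Fcer1a and 221 in Hdc, and Ms4a2 held 3. Kit and Mcpt8 held none of these letters in this window. Tpsb2 and Tpsab1 were not in the table.

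Library totals were between 18004136 and 21085544 counts, and a floor of 3 counts was worth 0.138 to 0.169 CPM. Keratinocyte genes (Krt5, Krt14, Krt1, Krt10, Trp63) summed to between 8103 and 19870 CPM in all 8 libraries. The baseline butyrate mice stood apart from each other: 27.1% of 14319 genes with a mean of at least 1 CPM differed more than 2-fold between them, against 2.33% in baseline CTL, 1.79% in lesional CTL and 5.01% in lesional butyrate mice. Baseline butyrate replicate 3 had 734 summed CPM of 6 melanocyte genes, against 34.3 to 57.1 in the other 7 libraries. It also held the lowest sums of macrophage (160 CPM), T cell (4.91), endothelial (115) and skeletal muscle genes (8339). The main values that rest on this library are given with and without it.

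**Figure D1:**
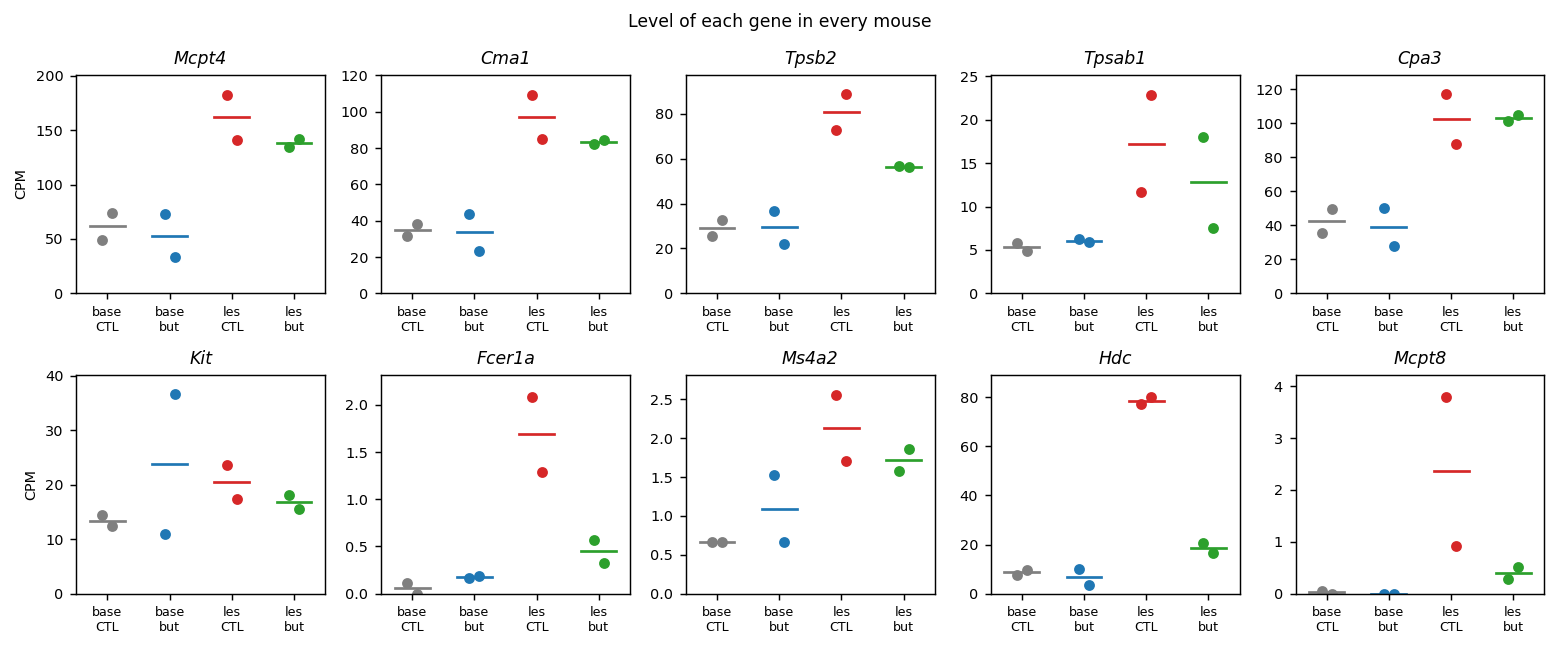
CPM of each of the 10 genes (vertical axes, from 0) in the 4 groups, with 1 point per mouse and a bar at the mean of 2 mice (base, baseline; les, lesional; but, butyrate). Mcpt4, Cma1, Tpsb2 and Cpa3 were higher in all 4 lesional than in all 4 baseline mice, while Hdc was at 77.1 and 80.3 CPM in lesional CTL and at most 20.7 CPM elsewhere.

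By the mean CPM of 2 mice, Mcpt4, Cma1, Cpa3 and Tpsb2 were the most abundant of the 10 genes in every group. Single mice differed, as Kit at 36.6 CPM was above all 4 in baseline butyrate replicate 3. In lesional CTL mice Hdc (77.1 and 80.3 CPM) overlapped Tpsb2 (73.0 and 88.7 CPM). Per length, as CPM per kilobase of exon (RPKM), Mcpt4 led in baseline CTL skin at 55.5, followed by Cma1 at 32.0, Cpa3 at 27.9 and Tpsb2 at 18.2 (means of 2 mice). Cma1 and Cpa3 overlapped in their RPKM between these mice (29.0 and 34.9 against 23.3 and 32.5), whereas Tpsb2 at 15.9 and 20.5 was below both. Tpsab1 at 2.56 RPKM, Kit at 1.51 and Hdc at 1.37 followed, of which Kit and Hdc overlapped, and Ms4a2 was at 0.237. In lesional CTL skin the order of the proteases was kept, and Hdc at 12.3 RPKM came next, above Tpsab1 at 8.24. Mcpt8 at 2.36 and Kit at 2.30 overlapped, and Fcer1a at 1.69 and Ms4a2 at 0.759 were the lowest.

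HDM-exposed skin of CTL mice had higher levels of the mast cell proteases than baseline skin. Mcpt4, a chymase, was at 49.3 and 73.7 CPM in baseline CTL, 72.7 and 33.3 CPM in baseline butyrate, 182 and 141 CPM in lesional CTL, and 134.5 and 142 CPM in lesional butyrate mice. The groups of lesional and baseline mice did not overlap, and the log2 fold change in CTL mice was 1.40 (SE 0.39, FDR 0.138), short of the threshold. Cma1, the mouse gene of mast cell chymase, was at 31.6 and 38.1 CPM in baseline CTL, 43.8 and 23.5 in baseline butyrate, 109 and 84.9 in lesional CTL, and 82.5 and 84.4 in lesional butyrate mice. It rose in CTL mice by 1.48 on the log2 scale (SE 0.31, FDR 0.0771).

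Tpsb2, a tryptase stored with heparin, was at 25.4 and 32.8 CPM in baseline CTL, 36.9 and 22.0 in baseline butyrate, 73.0 and 88.7 in lesional CTL, and 56.8 and 56.2 in lesional butyrate mice. Its rise in CTL mice was 1.47 (SE 0.27, FDR 0.0608). Tpsab1, the neighbouring tryptase gene, was lower and more variable, at 5.78 and 4.94 CPM in baseline CTL, 6.26 and 5.91 in baseline butyrate, 11.6 and 22.9 in lesional CTL, and 18.0 and 7.54 in lesional butyrate mice. Although all 4 lesional mice lay above all 4 baseline mice, its log2 fold change of 1.69 in CTL mice had an SE of 0.50 and an FDR of 0.152. Cpa3, the carboxypeptidase of mast cell granules, was at 35.4 and 49.3 CPM in baseline CTL, 50.2 and 27.8 in baseline butyrate, 117 and 87.6 in lesional CTL, and 101 and 104.5 in lesional butyrate mice. Its log2 fold change in CTL mice was 1.27 (SE 0.32, FDR 0.117).

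Relative to Cpa3 in the same library, the chymases varied less than the tryptases. Mcpt4 stood at 120 to 161 counts per 100 Cpa3 counts in the 8 libraries, and Cma1 at 77.2 to 96.9. Tpsb2 ranged from 53.7 to 101 counts per 100 Cpa3 counts, with the highest value in lesional CTL replicate 5 and the lowest in the lesional butyrate mice (53.7 and 56.1), and Tpsab1 from 7.21 to 26.2. These ratios are descriptions over 8 libraries that share Cpa3 as the denominator.

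Of the receptor genes, Kit rose less than the proteases in CTL mice and went against them in baseline butyrate replicate 3. Apart from that library, every lesional mouse lay above every baseline mouse. Kit was at 14.4 and 12.4 CPM in baseline CTL, 11.0 and 36.6 in baseline butyrate, 23.5 and 17.4 in lesional CTL, and 18.0 and 15.5 in lesional butyrate mice. The lesional CTL mice were above the baseline CTL mice, with a log2 fold change of 0.61 (SE 0.52, FDR 0.530). Its highest value, 36.6 CPM, was in baseline butyrate replicate 3, the library with 734 CPM of melanocyte genes. There Dct was at 278 CPM, Tyrp1 at 238, Pmel at 116, Tyr at 53.3 and Mlana at 38.6, and Sox10, at 10.1 CPM, was not raised; Mcpt4, Cma1, Tpsb2 and Cpa3 were at their lowest in the same library. The part of melanocytes in the Kit value was not tested.

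Fcer1a, the IgE-binding chain, was nearly absent from baseline skin, with 2 and 0 counts in CTL and 3 and 4 counts in butyrate mice. Lesional CTL mice had 39 and 28 counts, and lesional butyrate mice 12 and 7. The 67 counts in lesional CTL against 2 in baseline CTL gave a ratio of 29.9, with a 95% interval of 7.95 to 252 for counting error only. In butyrate mice 19 counts stood against 7, a ratio of 2.48 with an interval of 0.997 to 6.97. Ms4a2, the beta chain that amplifies the signal of the receptor, had 12 and 12 counts in baseline CTL, 27 and 14 in baseline butyrate, 48 and 37 in lesional CTL, and 33 and 40 in lesional butyrate mice. Its log2 fold change in CTL mice was 1.67 (SE 0.49, FDR 0.149).

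Hdc, which makes histamine from histidine, separated lesional CTL skin from all other groups. It was at 7.67 and 9.82 CPM in baseline CTL, 10.2 and 3.38 in baseline butyrate, 77.1 and 80.3 in lesional CTL, and 20.7 and 16.5 in lesional butyrate mice. In CTL mice it rose by 3.17 on the log2 scale (SE 0.50, FDR 0.0428), and the log2 fold change in butyrate mice was 1.46 (SE 0.47, FDR 0.302), or 0.87 without baseline butyrate replicate 3 and 2.46 without baseline butyrate replicate 1. Hdc stood at 66.0 and 91.7 counts per 100 Cpa3 counts in lesional CTL mice, at 20.5 and 15.8 in lesional butyrate mice, at 21.7 and 19.9 in baseline CTL mice, and at 20.3 and 12.2 in baseline butyrate mice. The lesional butyrate mice thus lay within the range of the 4 baseline mice on this ratio.

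**Figure D2:**
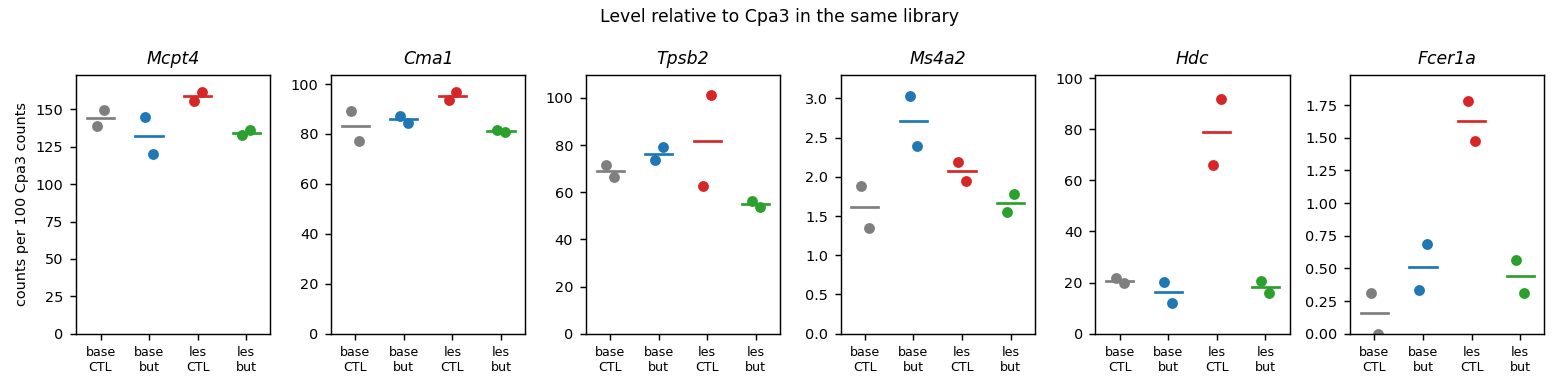
Counts of 6 genes per 100 Cpa3 counts of the same library (vertical axes, from 0), 1 point per mouse, with a bar at the group mean. Mcpt4 and Cma1 stayed between 120 and 161 and between 77.2 and 96.9, while Hdc was at 66.0 and 91.7 in lesional CTL mice and at most 21.7 in the other 6.

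Like Hdc, the neutrophil genes high enough to be tested were highest in lesional CTL mice. They did not follow Hdc throughout, as S100a8 had its highest baseline value (7.86 CPM) in baseline butyrate replicate 3, where Hdc was lowest. The sum of 10 neutrophil genes was 13.8 to 22.3 CPM in the baseline mice, 1648 to 2652 CPM in lesional CTL and 348 to 772 CPM in lesional butyrate mice. S100a8, S100a9, Csf3r and Cxcr2 rose in CTL mice, while Retnlg and Mmp8 passed the filter through lesional mice. S100a8 and S100a9, which are also made by inflamed keratinocytes, made up most of this sum in the lesional mice. They were at 1000 and 1466 CPM in lesional CTL replicate 4 and at 579 and 836 CPM in replicate 5. Ly6g, Camp, Ngp and Ltf, with at most 10 counts in any library, were too low to be tested. In lesional skin Retnlg had a log2 difference of -3.34 (SE 0.53) and Mmp8 of -2.71 (SE 0.62) in butyrate against CTL mice, neither called. The part of neutrophils in the level of Hdc was not tested.

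**Figure D3:**
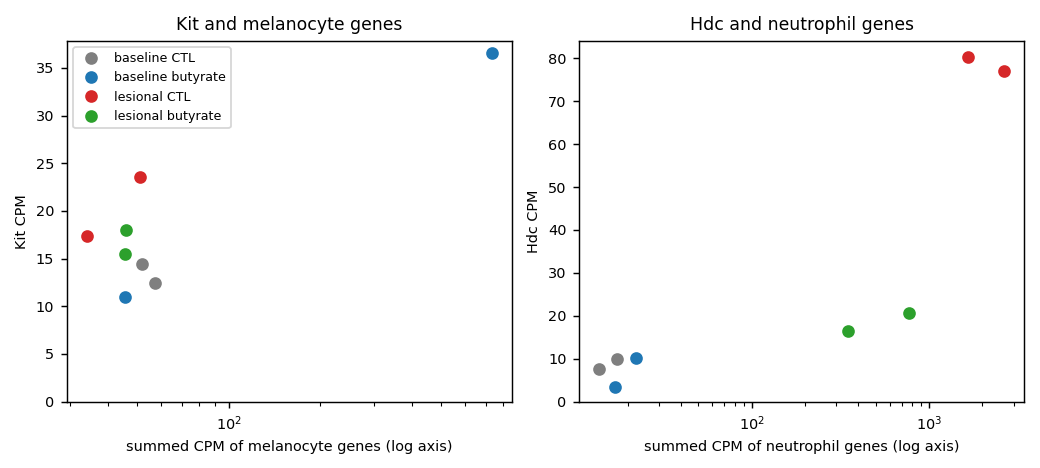
Left, Kit CPM against the summed CPM of 6 melanocyte genes; right, Hdc CPM against the summed CPM of 10 neutrophil genes, each point a mouse and the horizontal axes logarithmic. Baseline butyrate replicate 3 stands alone at 734 CPM of melanocyte genes and 36.6 CPM of Kit, and the lesional CTL mice lie highest in both Hdc and neutrophil genes. In the lesional mice the neutrophil sum is mostly S100a8 and S100a9, which inflamed keratinocytes also make.

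Mcpt8, the basophil protease gene, was detected almost solely in lesional skin. It had 1 and 0 counts in baseline CTL, 0 and 0 in baseline butyrate, 71 and 20 in lesional CTL, and 6 and 11 in lesional butyrate mice. A count of 0 allows up to 3 counts per library, so that lower levels in baseline skin were not detectable at this depth. In CTL mice 91 counts stood against 1, a ratio of 81.1 with a 95% counting interval of 14.2 to 3238. In butyrate mice 17 counts stood against 0. The mean lesional level was 2.56 times the mean floor of 3 counts per library, with no allowance for counting error in the 17 counts. The lesional CTL mice differed from each other by more than the lesional butyrate mice, and replicate 4 held most of the CTL counts.

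Of the 8 members that reached the filter's cutoff at baseline, 3 were called in lesional against baseline skin of CTL mice (Cma1, Tpsb2 and Hdc), all of them higher, against 3.58% of all tested genes called and 2.37% called higher. For all 8, both lesional CTL mice lay above both baseline CTL mice, against 36.7% of all tested genes. Their median log2 fold change was 1.48, beside -0.015 over all tested genes. Fcer1a and Mcpt8 also came out as called (FDR 0.0529 and 0.0951), which is not read as support because they passed the filter through these mice, and the call of Mcpt8 ended without the filter (FDR 0.101). The count depended on which mice entered the fit. It was 0 of 8 without any single one of baseline CTL replicates 1 and 2, lesional CTL replicates 4 and 5, and lesional butyrate replicates 3 and 4. It was 7 of 8, all but Kit, without baseline butyrate replicate 1 (12.3% of all genes called), without baseline butyrate replicate 3 (12.5%), with only the CTL mice (12.9%) and by DESeq2 (7.21%). The direction was higher for all 8 genes in each of these fits.

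In butyrate-treated mice, 0 of the 8 genes were called in lesional against baseline skin by edgeR, against 0.350% of all tested genes. At an unadjusted p under 0.05 by this test stood 5 of the 8 genes and 1993 of all 15163 tested genes. In 7 of the 8, all but Kit, both lesional mice lay above both baseline mice, against 15.7% of all tested genes. The median log2 fold change was 1.19, beside -0.045 over all tested genes, and 0.90 without baseline butyrate replicate 3. Mcpt4 differed by 1.38 (SE 0.39, FDR 0.271), Cpa3 by 1.40 (SE 0.32, FDR 0.203), Cma1 by 1.31 (SE 0.31, FDR 0.205) and Tpsb2 by 0.94 (SE 0.27, FDR 0.277). Without baseline butyrate replicate 3, which leaves 1 baseline butyrate mouse that is assumed to vary like the others, these values were 0.93, 1.04, 0.93 and 0.62, only Cpa3 was called (5.94% of all genes), and Kit turned from -0.51 to 0.61. Without baseline butyrate replicate 1, 7 of the 8 were called (19.1%), namely Mcpt4, Cma1, Tpsb2, Cpa3, Ms4a2 and Hdc as higher and Kit as lower. DESeq2 called 4 of the 8, namely Mcpt4, Cma1, Cpa3 and Hdc (4.60%).

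**Figure D4:**
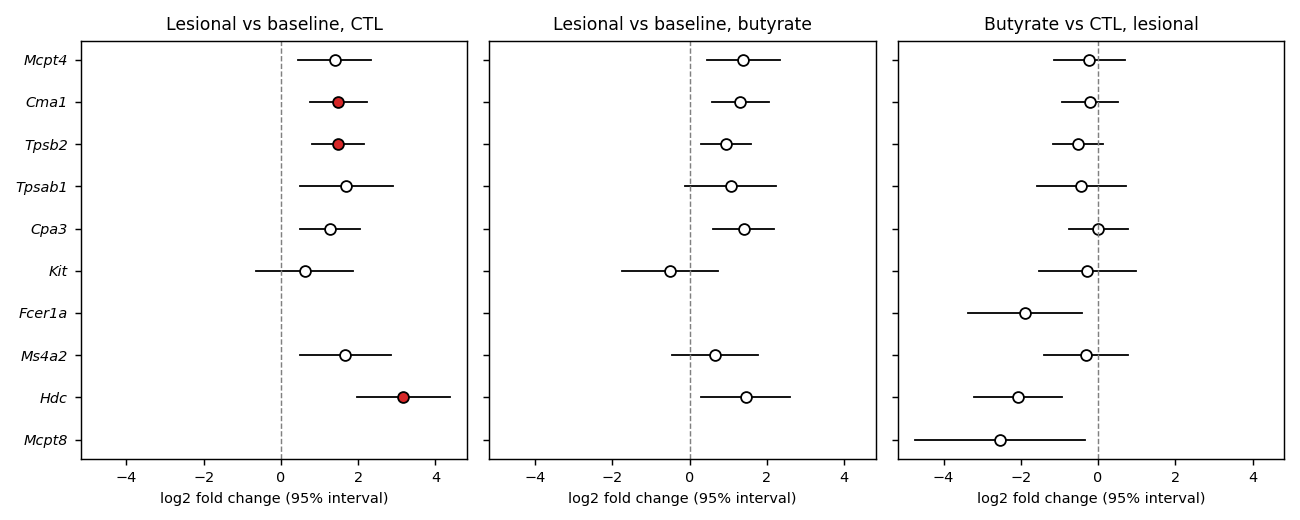
Log2 fold changes with 95% intervals from the edgeR fit of 8 mice for lesional against baseline skin in CTL mice (left) and in butyrate-treated mice (middle) and for butyrate against CTL in lesional skin (right), with called genes filled. Fcer1a and Mcpt8 are left out of the left and middle panels, where a baseline group was at or near 0 counts. In the right panel they are descriptions only, because they reached the filter's cutoff in 2 lesional CTL mice and 1 lesional butyrate mouse. The granule proteases lie between 0.94 and 1.69 in the left and middle panels and between -0.52 and 0.01 in the right one, where Hdc lies at -2.08.

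Butyrate-treated and CTL mice were then compared in lesional skin, which asks whether butyrate changed the inflamed skin. No member was called by edgeR, against 0% of all tested genes. At an unadjusted p under 0.05 stood 1 of the 8 genes, Hdc, and 734 of all tested genes. Hdc was at 0.237 of its CTL level, a log2 difference of -2.08 (SE 0.47, 95% interval -3.22 to -0.94, FDR 0.737). Both lesional butyrate mice lay below both lesional CTL mice in 3 of the 8 genes (Cma1, Tpsb2 and Hdc), against 22.5% of all tested genes. Fcer1a and Mcpt8 had 19 against 67 and 17 against 91 counts. They reached the filter's cutoff in 2 lesional CTL mice and in 1 lesional butyrate mouse, so that a fall with butyrate was built into their selection. Their log2 differences of -1.89 and -2.53 are thus descriptions only. Leaving out lesional CTL replicate 4 changed the value of Mcpt8 to -1.20, and leaving out replicate 5 changed it to -3.22. With 2 mice against 2, an exact permutation test cannot go below p = 0.333.

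Hdc was called in other fits of the same comparison. DESeq2 called it (FDR 0.00646; 0.818% of all genes called), as did edgeR with only the 4 lesional mice (FDR 0.0613, 0.168%), without baseline butyrate replicate 1 (FDR 0.0241, 1.22%) and without baseline butyrate replicate 3 (FDR 0.0240, 1.22%). Its log2 difference was between -2.25 and -1.92 in all fits, with FDR from 0.00646 to 1. No other member was called in lesional skin under any alternative.

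The granule proteases and Kit differed little between lesional CTL and butyrate-treated mice, within wide intervals. Cpa3 had a log2 difference of 0.01 (95% interval -0.75 to 0.77), Mcpt4 of -0.23 (-1.15 to 0.70) and Cma1 of -0.22 (-0.94 to 0.51). Tpsb2 was lower in both butyrate mice, with a difference of -0.52 (-1.17 to 0.13), while Tpsab1 (-0.43, -1.59 to 0.72), Kit (-0.29, -1.54 to 0.97) and Ms4a2 (-0.31, -1.39 to 0.78) overlapped between the groups. The median over the 8 genes was -0.30, beside -0.005 over all tested genes, and -0.04 without lesional CTL replicate 4. Each of these 7 intervals reaches -0.75 or lower, so that equal levels were not shown.

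In baseline skin 0 of the 8 genes were called for butyrate against CTL (0% of all tested genes). At an unadjusted p under 0.05 by edgeR stood 0 of the 8 genes and 529 of all 15163 tested genes. The median was -0.02, and 0.24 without baseline butyrate replicate 3, with Mcpt4 at -0.21 (SE 0.38), Cma1 at -0.05 (SE 0.30) and Cpa3 at -0.12 (SE 0.32). Mcpt8 was at or under the floor in both groups, and no fold is given. Kit stood at 0.83 (SE 0.52) with both mice and at -0.29 without baseline butyrate replicate 3, and Hdc at -0.37 (SE 0.47) and 0.22. With that library as the sole baseline butyrate mouse, Kit (1.44) and Hdc (-1.37) were called, as were 24.1% of all genes.

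Whether butyrate acted differently in lesional than in baseline skin was tested as an interaction, which was called for 0 of the 8 genes (0% of all tested genes), whose median was -0.57, -0.60 without baseline butyrate replicate 3 and -0.21 without baseline butyrate replicate 1. Hdc had the value -1.71 (SE 0.66, FDR 0.840), which was -0.70 without baseline butyrate replicate 1 and -2.30 without baseline butyrate replicate 3. Without baseline butyrate replicate 1 the call was made for Kit alone, at -1.73, with 20.9% of all genes called. The comparisons of CTL and butyrate-treated skin and of lesional and baseline skin share mice, so their values are given side by side and not as separate evidence.

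Most other genes known from mast cells, listed apart from the 10, were higher in lesional than in baseline CTL skin. Of 18 genes 15 were tested, of which 13 were higher and 2 lower. The 2 that were called, against 3.58% of all tested genes, were both higher. Srgn, which encodes the granule proteoglycan serglycin, rose by 2.71 (SE 0.29, FDR 0.0262), and Il1rl1, the receptor of IL-33, by 2.98 (SE 0.38, FDR 0.0322). Both are also made by other leukocytes. Il1rl1 was at 6.45 and 7.83 CPM in baseline CTL, 8.63 and 3.81 in baseline butyrate, 55.7 and 57.0 in lesional CTL, and 20.6 and 20.2 in lesional butyrate mice, and Srgn was at 121 and 155 CPM in lesional CTL against 38.4 and 55.4 CPM in lesional butyrate mice. In lesional skin their differences for butyrate were -1.47 (SE 0.35) and -1.55 (SE 0.28), both with an FDR of 0.737. Over the 15 genes the median log2 fold change was 0.87 for HDM in CTL mice and 0 for butyrate in lesional skin.

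Some narrower mast cell genes, chosen after their values were seen, do not stand for the list. In lesional CTL skin 13 of its 15 tested genes were higher, Mrgprb1 and Tph1 among them, and 2 were lower, Mrgprb2 among them. Mrgprb1 was at 11.2, 11.0, 12.7 and 5.38 CPM in the baseline mice and 19.2 to 24.5 CPM in the lesional mice, and Tph1, which starts serotonin synthesis, at 0.190 to 1.17 CPM and 4.54 to 5.45 CPM. Mrgprb2, a receptor through which peptides and drugs activate connective tissue mast cells, was at 16.4, 15.8, 19.2 and 5.72 CPM in the baseline mice, at 4.64 and 5.58 CPM in lesional CTL and at 10.6 and 8.19 CPM in lesional butyrate mice. It was thus lower in lesional than in baseline CTL skin, where Mcpt4 and Cpa3 were higher, with a log2 fold change of -1.65 (SE 0.54, FDR 0.181). Butyrate-treated lesional mice lay above both lesional CTL mice in Mrgprb2 (0.88, SE 0.53, not called).

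**Figure D5:**
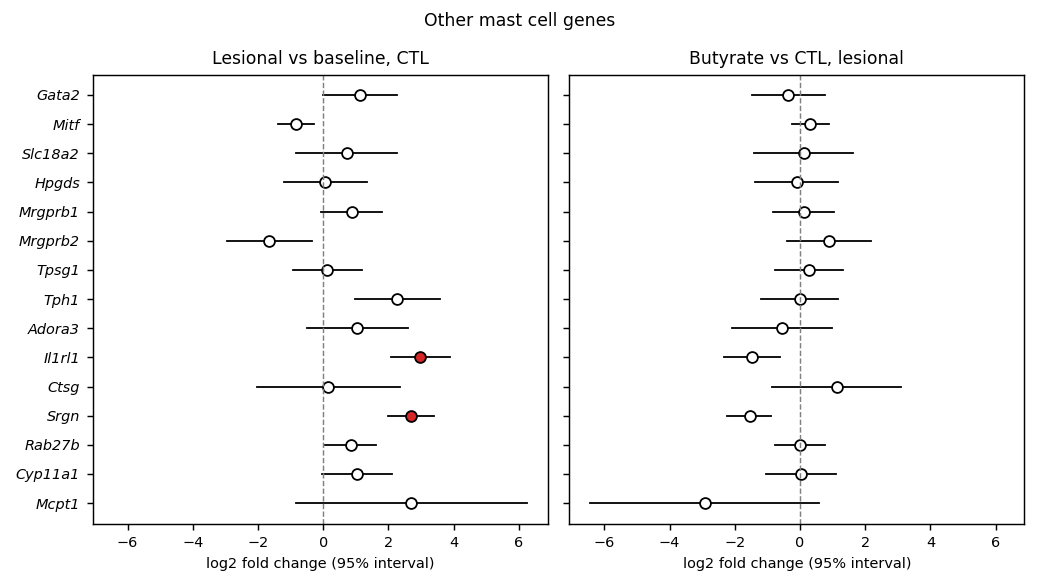
Log2 fold changes with 95% intervals from the edgeR fit of 8 mice for 15 other genes known from mast cells, for lesional against baseline skin in CTL mice (left) and butyrate against CTL in lesional skin (right), with called genes filled. Srgn and Il1rl1 are at 2.71 and 2.98 on the left and at -1.55 and -1.47 on the right, and Mrgprb2 lies at -1.65 on the left.

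The other basophil genes were mostly higher in lesional CTL skin, with 3 of 9 tested called, against 3.58% of all tested genes. Prss34, which was too low to be tested, did not rise with Mcpt8. It had 2 and 1 counts in baseline CTL, 0 and 5 in baseline butyrate, and 3 and 5 in each lesional group. Cebpa, at 205 and 211 CPM in baseline CTL and 201 and 189 CPM in lesional CTL mice, was lower. Il13, a type 2 cytokine that T cells and innate lymphoid cells also make, passed the filter through lesional mice like Mcpt8, and had 2 and 0 counts in baseline CTL and 68 and 35 in lesional CTL mice. Il4 passed it through the lesional CTL mice alone, with 23 and 11 counts there. It had 2 and 4 counts in baseline CTL, 2 and 2 in baseline butyrate, and 6 and 1 in lesional butyrate mice. Il6, which many cells make, was at 0.667 and 0.222 CPM in baseline CTL, 11.3 and 16.1 CPM in lesional CTL, and 2.63 and 1.91 CPM in lesional butyrate mice. Ccr3, a chemokine receptor of basophils and eosinophils, had 7 and 4 counts in baseline CTL and 30 and 77 in lesional CTL mice. The median over the 9 genes was 2.25 for HDM in CTL mice and -1.06 for butyrate in lesional skin, where 8 of 9 were below 0 and 0 were called, with Il6 at -2.59 (SE 0.56) and Itga2 at -1.06 (SE 0.26). The filter built a difference into the rise of Il4 and Il13 with HDM and into the fall of Il4 with butyrate. The calls, counts and medians over these 9 genes include them and are descriptions only. Eosinophil genes stayed low, with sums of at most 4.11 CPM and Epx at 0 counts in every library.

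Upstream and downstream of these cells, the lists gave few calls. Of all tested genes, 3.58% were called in lesional against baseline skin of CTL mice. In Fc epsilon receptor signalling 0 of 12 genes were called in CTL mice, with a median of 0.72, Lat at 1.86 (SE 0.56) and the kinase gene Syk at 0.97 (SE 0.31). For butyrate in lesional skin the median of these 12 was -0.50, with 11 of them below 0, Syk at -0.95 (SE 0.31) and Lyn at -0.76 (SE 0.47) among them, and 0 were called. Lesional butyrate replicate 3 lay below replicate 4 in Syk (29.0 and 45.9 CPM) and Lyn (17.0 and 28.1). It was also lower in the sums of macrophage and dendritic cell (340 and 642 CPM), fibroblast (3309 and 8403) and endothelial genes (178 and 281). The part of tissue makeup in these differences was not tested. Of 7 tested growth factor and cytokine genes, 6 were higher in lesional than in baseline CTL skin, and 2 were called. These were Il33, an alarmin of the epithelium, at 2.24 (SE 0.50) and Il4ra, a chain of the receptors of IL-4 and IL-13, at 1.94 (SE 0.32). Il4ra was at -1.45 (SE 0.31) and Tgfb1 at -0.46 (SE 0.15) for butyrate in lesional skin, neither called. Il33 was at 31.9 and 39.2 CPM in baseline CTL, 170 and 167 in lesional CTL, and 86.0 and 75.5 in lesional butyrate mice. Kitl, the ligand of KIT, was at 40.7 to 59.0 CPM in 7 libraries and at 79.7 CPM in baseline butyrate replicate 3. Of the genes for histamine receptors and breakdown, 3 of 4 tested were higher in lesional CTL skin, and Hrh1 alone was called (1.31, SE 0.29). Of 7 genes for leukotriene and prostaglandin synthesis 4 were higher and 3 lower, and Ptgs2 alone was called (3.36, SE 0.30).

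The lists for other cells of skin gave 1 further call in CTL mice, Cd4, which rose by 2.72 (SE 0.57) among 6 T cell genes. None was called among 8 macrophage and dendritic cell, 5 keratinocyte, 6 fibroblast, 5 endothelial, 5 adipocyte, 5 skeletal muscle and 6 melanocyte genes or 5 genes of RNA quality and dissociation. For HDM in butyrate-treated mice the calls over all lists were S100a9 (6.39, SE 0.61) and Cxcr2 (3.46, SE 0.32), and for butyrate in lesional or baseline skin there were 0. Summed T cell genes stood at 33.1 to 63.3 CPM in lesional CTL and 29.7 to 38.0 CPM in lesional butyrate mice, with lesional CTL replicate 4, which held most Mcpt8 counts, the highest of all.

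The genes whose levels over the 8 mice were most like those of Mcpt4, Cma1, Tpsb2 and Cpa3 together were D1Ertd622e (Pearson r 0.991), Ltb (0.988), Nagpa (0.985), BC100530 (0.984), Gpr183 (0.982), Gsdmc (0.981), Il2ra (0.981) and Glipr1 (0.981), of 14190 genes compared. Among the members outside these 4, r was 0.904 for Ms4a2 and for Hdc, 0.786 for Mcpt8, 0.781 for Fcer1a, 0.752 for Tpsab1 and -0.115 for Kit. The value for Kit includes baseline butyrate replicate 3, where Kit was highest and these 4 genes were lowest. These r values describe 8 libraries that fall into lesional and baseline mice, a split that sets most of their size, and they carry no test.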

How the data were processed

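Skin RNA of 8 mice was sequenced after TruSeq library preparation, per the labels and the study's methods. The authors aligned reads with STAR 2.5.2 to GRCm38 and counted them per gene with featureCounts, and they deposited raw counts of protein-coding genes, named as counted on the reverse strand. Whether the library kit marked strand is not given in the sources used here. Groups were taken from the labels, where SCFA was read as butyrate and atopic dermatitis as lesional. Nothing states that the mice of a group came from separate cages.

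CPM were calculated on library sizes scaled by the trimmed mean of M-values, and RPKM on exon lengths of GENCODE vM21. The test was edgeR 4.0.16 (R 4.3.3, glmQLFit with robust estimation, filterByExpr with a minimum count of 10) on all 8 mice with 1 mean per group, 4 residual degrees of freedom and Benjamini-Hochberg FDR over 15163 genes. The fit was repeated with limma-voom (limma 3.58.1), with DESeq2 (version 1.42.0), with other scalings, without the filter, with only the mice compared, and with each mouse left out in turn. Intervals of count ratios are exact and cover counting error only. The members and gene lists were chosen with earlier results of these data known. All 10 members were named. From the other lists the rule named every called gene and the 2 genes with the smallest p for HDM in CTL mice and for butyrate in lesional skin, of which those not called are printed only where they bear on the members, and the 8 genes most correlated with Mcpt4, Cma1, Tpsb2 and Cpa3 (log2 of CPM plus 0.5, genes with a mean of at least 1 CPM).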

Additional observations from a re-analysis of the deposited data

How the results depend on the processing

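The number of genes called was the value most open to the processing. Counts in this paragraph are over all 10 members. They include Fcer1a and Mcpt8, which passed the filter through lesional mice, and are thus descriptions only. DESeq2 called 1 for butyrate in lesional skin (0.818% of all genes called). It called 9 for HDM in CTL mice (7.21%) and 5 for HDM in butyrate mice (4.60%). Fits with only the mice compared called 1 for butyrate in lesional skin (0.168%) and 9 for HDM in CTL mice (12.9%). The shares of all genes called without either baseline butyrate mouse are given in the Results. Fits that each left out 1 mouse called 0 to 1 member for butyrate in lesional skin, 0 to 2 for butyrate in baseline skin, 0 to 9 for HDM in CTL mice, 0 to 7 for HDM in butyrate mice and 0 to 1 for the difference between the effects of butyrate. The count of 5 for HDM in CTL mice was 4 without the filter on low counts, which lost Mcpt8. Of 48 log2 fold changes of members, 33 kept their sign under every alternative run. With limma-voom, Tpsb2 in baseline skin became -0.03 and the difference between effects for Mcpt4 became 0.09. When 1 mouse was left out, the values for butyrate in baseline skin ranged from -0.89 to 0.24 for Mcpt4, -0.57 to 0.33 for Cma1, -0.41 to 0.34 for Tpsb2, -0.61 to 0.24 for Cpa3, -0.29 to 1.44 for Kit, 0 to 1.18 for Ms4a2 and -1.37 to 0.22 for Hdc. For butyrate in lesional skin they ranged from -1.20 to 0.14 for Tpsab1, -0.18 to 0.23 for Cpa3 and -0.57 to 0.01 for Ms4a2, and for HDM in butyrate mice from -1.12 to 0.61 for Kit. For the difference between effects they ranged from -0.47 to 0.66 for Mcpt4, -0.55 to 0.35 for Cma1, -0.23 to 0.62 for Cpa3 and -1.73 to 0 for Kit, and, with no change of sign, from -2.30 to -0.70 for Hdc. Mcpt8 for butyrate in lesional skin ranged from -3.22 to -1.20. The baseline butyrate mice are 2 libraries that differ widely, and leaving out either removes that pair from the spread that all groups share in the fit; the cause of the other changes was not tested. No paired analysis was possible because no compared groups have more than 1 replicate number in common. At this depth Mcpt8 and Fcer1a in baseline skin are at the limit of counting.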
